A study of Mus musculus with 27 samples.

Results

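Lipid droplet proteins and adipokines were followed through 9 time points of osteoblast differentiation in cells from the mouse skull vault. The members were 10 genes of the 37991 in the files: the perilipins Plin1, Plin2, Plin3, Plin4 and Plin5, the droplet fusion gene Cidec, and the secreted factors Adipoq, Retn, Lep and Cfd. They are listed genes that were picked with their counts over the days in view, so every change of a member with day is given as a description with no test. Their summed counts over the 3 profiles of a day are the values on which the members were chosen.

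The cells came from calvariae of neonatal mice of the strain C57BL/6J-Col3.6 CFP, which carry a cyan fluorescent protein under a fragment of the collagen type I promoter that is active in preosteoblasts and osteoblasts. Fluorescent cells were sorted and differentiated in a medium with ascorbic acid plus β-glycerol phosphate, and no adipogenic agent is named in the sources used here. RNA was taken on days 2, 4, 6, 8, 10, 12, 14, 16 and 18, with 3 profiles per day, and all days share genotype, sort and medium. The paper calls the 3 profiles of a day triplicate samples, but they carried 1 barcode read in 3 lanes and were counted here as 1 sample, so that no time point has a replicate in the tests and day and library cannot be told apart.

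Neutral lipid is stored in droplets whose surface is coated by perilipins, which regulate the access of lipases to the stored triglyceride. Plin2 and Plin3 are made in most cell types, whereas Plin1, Plin4 and Cidec are characteristic of white adipocytes, where Cidec promotes the growth of droplets into a single large one. Adipocytes also secrete adipokines, among them adiponectin (Adipoq), leptin (Lep), resistin (Retn) and the protease adipsin (Cfd), which acts in the alternative complement pathway.

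A day held 22470195 (day 10) to 62009157 (day 12) counts after its 3 profiles were summed. Within a day the lane profiles scattered about as counting alone gives (chi-square divided by its degrees of freedom, 0.997 to 1.02 over genes with whole-number counts). Osteoblast collagen was abundant on every day, with Col1a1 at 1526 TPM (a level per transcript length, here upper-quartile normalized) on day 2 and 4263 TPM on day 18. The summed level of the 12 osteoblast markers was 3002 to 5282 TPM on days 2 to 6 and 7807 to 9604 TPM on days 14 to 18, most of it Col1a1 and Col1a2. Of the 12, 10 had a higher late mean. Sp7 went from 32.3 TPM on day 2 to 2.77 on day 8 and was back at 10.6 on day 18, and Sost never passed 0.113 TPM. Over the same days the 7 macrophage markers went from 24.1 to 61.7 TPM to 522 to 2014 TPM, most of it Lyz2, and all 7 had a higher late mean. The 5 endothelial markers summed to 8.84 to 12.0 TPM on days 14 to 18, with Tie1 at 0 counts, and the 6 striated muscle markers to 4.28 to 5.42 TPM, with Ckm at 0 counts. Of the 4 brown adipocyte markers, Ucp1 and Elovl3 had 0 counts in all profiles. Dio2 reached 143 TPM on day 18 and Cox8b 7.59 TPM, the latter from 44 counts over all days. The part of these other cells in the levels of the members was not tested. In a bulk sample, more cells of a type and more RNA per cell cannot be told apart.

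**Figure D1:**
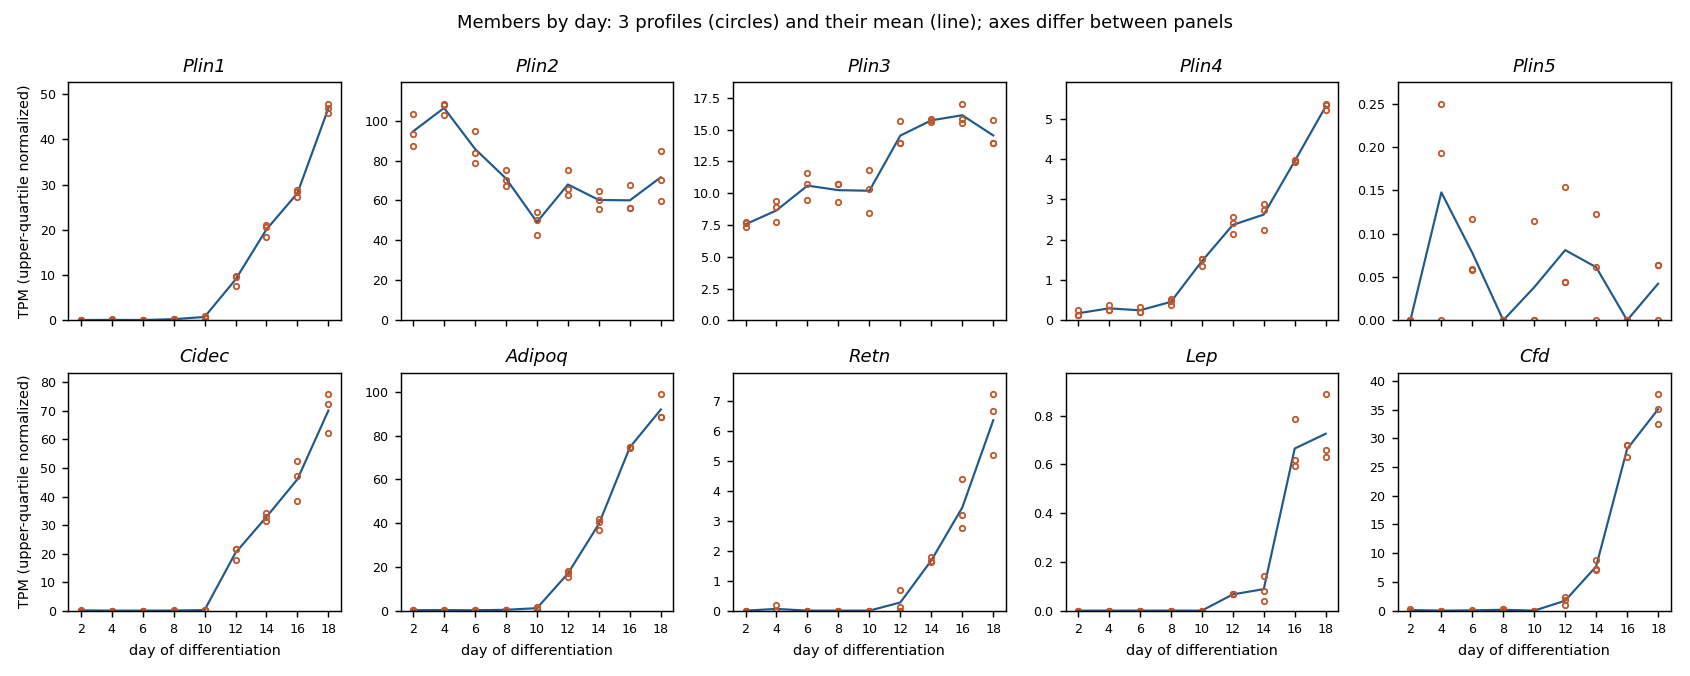
Upper-quartile normalized TPM (vertical axis, linear, from 0, a different range in each panel) of the 10 members against day of differentiation; circles are the 3 profiles of a day and the line joins their means. Plin1, Cidec, Adipoq, Cfd, Retn and Lep lie near 0 through day 10 and reach their highest level on day 18, Plin2 is highest on day 4, and Plin5 stays under 0.15 TPM as a mean on every day.

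Plin2, which coats droplets in most cells, was the leading perilipin from the start. It lies at chr4:86294290-86315964 on the minus strand (NCBIM37). Its level was 94.6, 106, 85.8, 71.0, 49.2, 68.0, 60.2, 60.1 and 71.6 TPM on days 2 to 18. All of days 2 to 6 were above all of days 14 to 18, and the lowest TPM was on day 10, the day with the fewest counts. The length by which TPM divides, averaged over isoforms, was highest on that day at 1543 bases. In CPM, the count scaled to the library total, day 10 stood at 41.6 and the lowest day was day 14 at 39.5. Late CPM was 0.599 of early CPM, with a 95% exact interval of 0.579 to 0.619. This interval covers counting error only, as do all intervals here. The 3 profiles of day 18 ranged from 59.9 to 84.9 TPM, their counts from 630 to 702, and the isoform-averaged length on which TPM rests from 1191 to 1480 bases.

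Plin3, the other widely made perilipin, moved the other way and over a small range. This gene, at chr17:56418385-56429934 on the minus strand, had 7.55, 8.65, 10.6, 10.2, 10.2, 14.5, 15.7, 16.1 and 14.5 TPM on days 2 to 18. Days 12 to 18 were all above days 2 to 10. The late to early ratio in CPM was 1.57 (1.47 to 1.67).

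Plin1, the perilipin that guards the droplet of white adipocytes and releases the lipase co-activator Abhd5 when phosphorylated, was near the floor of detection until day 8. It lies at chr7:86866050-86877662 on the minus strand. Its summed counts were 3, 4, 3, 8, 18, 527, 921, 1410 and 2064 on days 2 to 18, which correspond to 0.0637, 0.0838, 0.0584, 0.237, 0.732, 8.99, 20.1, 28.1 and 46.9 TPM. Each day from day 8 on was above the day before it, and the day 18 value had an SD of 1.01 TPM over the 3 profiles. Late CPM was 401 times early CPM (218 to 836), from 10 counts in all on days 2 to 6 and 4395 on days 14 to 18.

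Cidec, at chr6:113374628-113385754 on the minus strand, went from 4 counts on day 10 to 288 on day 12. Its counts were 4, 0, 0, 1, 4, 288, 401, 675 and 861 on days 2 to 18. No early day held more than 4 counts and the lowest of days 12 to 18 held 288. The late to early ratio in CPM was 441 (172 to 1621). The TPM of Cidec, 20.3, 32.9, 46.0 and 70.1 on days 12 to 18, rests on short isoforms: the abundance-weighted transcript length was 682, 715, 758 and 737 bases on those days, although the annotation holds transcripts of 1703 and 1720 bases beside those of 785 and 376 bases. Divided by the longest transcript instead, an alternative added after the data had been seen, the day 18 level of Cidec was 22.2 TPM, below Plin1 at 46.9 TPM on the same scale, so the order of these genes by level depends on the isoform assignment.

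Plin4, which coats small nascent droplets in adipocytes, reached 1 TPM on day 10, before Plin1 on day 12, and rose more gradually. It had 27, 46, 40, 51, 122, 465, 402, 664 and 781 counts on days 2 to 18, or 0.173 TPM on day 2, 1.46 TPM on day 10 and 5.30 TPM on day 18. Its largest step between neighbouring days, 1.04 on the log2(TPM + 0.5) scale, was from day 8 to day 10, a step earlier than that of Plin1. That scale damps steps at low levels. As a plain ratio of TPM, day 10 over day 8 was 3.21 for Plin4 and 3.08 for Plin1, the latter from 8 and 18 counts. The late to early ratio in CPM was 14.9 (12.3 to 18.2).

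Plin5, the perilipin of oxidative tissues such as heart and brown fat, was barely detected. It had 0, 7, 4, 0, 1, 5, 3, 0 and 2 counts on days 2 to 18 and never passed 0.148 TPM. Early and late days overlapped, with 11 counts against 5, and the ratio in CPM of 0.414 had an interval of 0.113 to 1.29, so no difference was detectable at this depth. Plin4 at chr17:56240014-56249225 and Plin5 at chr17:56251024-56257019 are neighbours on the minus strand, 1798 bases apart, yet Plin4 was at 5.30 TPM on day 18 and Plin5 at 0.0423 TPM.

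The composition of the perilipin transcripts changed with these levels. Plin2 made up 92.4% of the summed TPM of the 5 perilipins on day 2, 79.8% on day 10 and 51.7% on day 18. Plin1 held 0.0623% on day 2, and 9.57%, 20.3%, 25.9% and 33.9% on days 12, 14, 16 and 18. Plin3 was highest on day 10 at 16.5% and ended at 10.5%, and Plin4 reached 3.83%. With the longest transcript of each gene as its length, the shares on day 18 were 41.1% for Plin2 and 41.4% for Plin1. Plin1 held a larger share on day 18 than on day 2 with either length, while the order of Plin1 and Plin2 on day 18 did not.

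**Figure D2:**
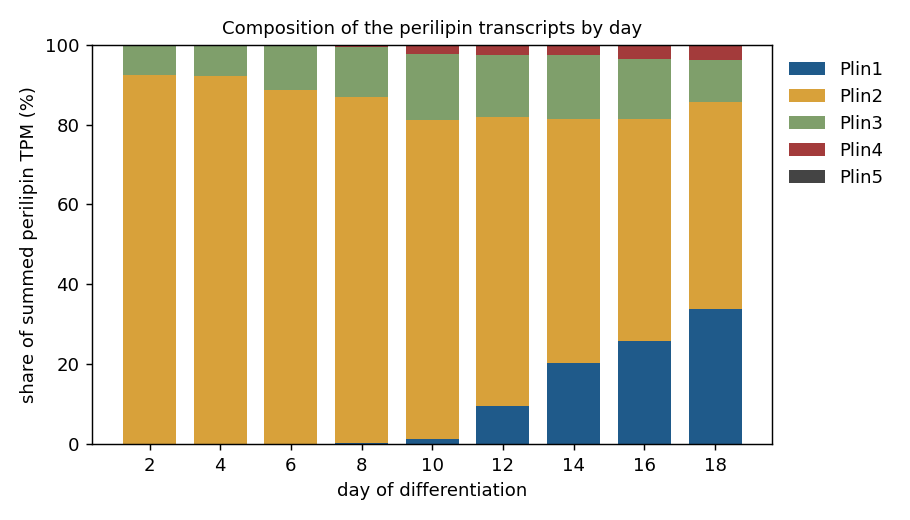
Share of each perilipin in the summed TPM of Plin1 to Plin5 (vertical axis, percent, from 0 to 100) for each day of differentiation (horizontal axis); each bar is 1 day and the colours are the genes. Plin2 takes 92.4% of the bar on day 2 and 51.7% on day 18, and Plin1 grows from 0.0623% to 33.9%.

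Adipoq, which encodes adiponectin, an insulin-sensitizing hormone, had the highest level of the 4 member adipokines on day 18. It lies at chr16:23146609-23158101 on the plus strand. Its counts were 4, 4, 2, 8, 17, 592, 1125, 2321 and 2504 on days 2 to 18, and its level was lowest on day 6 at 0.162 TPM and then 0.388, 1.13, 17.0, 39.6, 74.7 and 92.0 TPM on days 8 to 18. The course was close to that of Plin1: each day from day 8 on was above the one before. Late CPM was 542 times early CPM (295 to 1131).

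Cfd, the complement protease adipsin at chr10:79353598-79355401 on the plus strand, came up later than Adipoq. Its counts were 2, 0, 1, 2, 0, 40, 139, 556 and 608 on days 2 to 18, and its TPM was 1.74, 7.71, 28.2 and 35.1 on days 12 to 18. The early days held 3 counts in all, against 1303 on the late days, a ratio in CPM of 396 with a wide interval of 135 to 1922.

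Retn, at chr8:3655770-3660110 on the plus strand, encodes resistin, an adipocyte hormone of mice. It had 0, 1, 0, 0, 0, 6, 28, 63 and 102 counts on days 2 to 18, with 1.68, 3.44 and 6.36 TPM on days 14 to 18. Only day 4 of the first 5 time points held a count. The ratio in CPM of 176 rests on 1 early count, with an interval of 31.2 to 6983.

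Lep, at chr6:29010220-29023877 on the plus strand, encodes leptin, the satiety hormone that reports fat stores. No count was found on days 2 to 10, and days 12 to 18 held 6, 7, 53 and 58 counts. With a floor of 3 counts over the 3 early days together, late CPM was at least 35.8-fold higher than early CPM, and the 95% exact interval of the ratio begins at 28.7. Even so Lep stayed low, at 0.725 TPM on day 18, where Adipoq had 92.0 TPM.

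**Figure D3:**
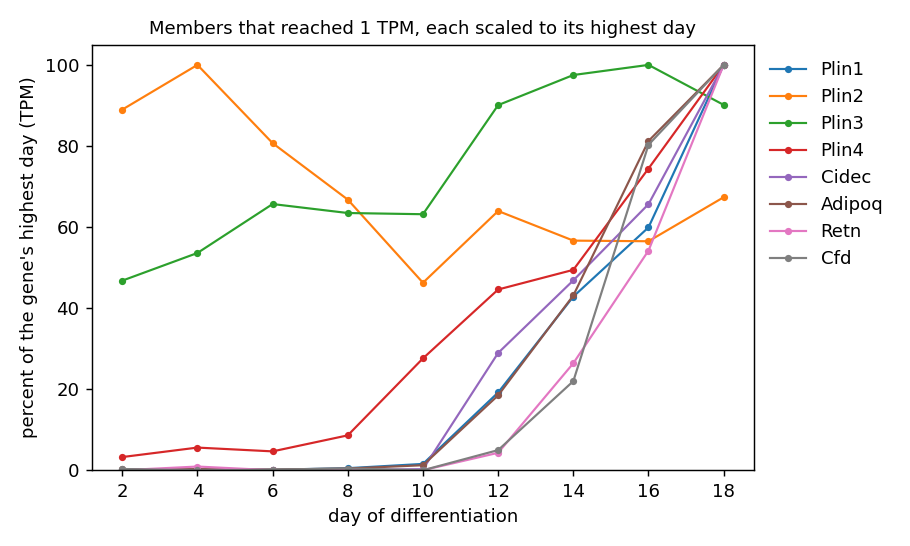
Level of each of the 8 members that reached 1 TPM as a percent of its own highest day (vertical axis) against day of differentiation (horizontal axis); each line is 1 gene. Plin1, Adipoq and Cidec leave the baseline after day 10, Plin4 leaves it after day 8, Cfd and Retn climb mainly after day 12, Plin3 levels off from day 12 and Plin2 runs downward from day 4 to day 10.

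The order of appearance differed among the members. Plin2 and Plin3 were at or above 1 TPM from day 2, Plin4 and Adipoq from day 10, Plin1, Cidec and Cfd from day 12 and Retn from day 14, while Lep and Plin5 never reached it. Between day 10 and day 12 the CPM ratio was 26.1 (10.1 to 96.4) for Cidec, 12.6 (7.81 to 21.8) for Adipoq and 10.6 (6.65 to 18.0) for Plin1. Over the same step it was 1.38 (1.13 to 1.70) for Plin4, 1.22 (1.07 to 1.39) for Plin3 and 1.00 (0.930 to 1.08) for Plin2. Of the 8 members that reached 1 TPM, 4 were over 2-fold higher on the log2(TPM + 0.5) scale in this step, beside 4.19% of all 15360 genes that reached 1 TPM, a background from which nothing is read since the members were chosen on these days. This step joins the smallest library (day 10) to the largest (day 12), and it was singled out after the levels had been seen. Among the fatty acid and triglyceride genes, 7 of 18 were over 2-fold higher in the step, and among other adipokines 3 of 14. It was 1 of 16 adipocyte regulators, 0 of 14 droplet partners and 0 of 9 receptors and substrates. Of the markers of other cells, 5 of 11 osteoblast and 3 of 7 macrophage genes were.

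The adipokines were then compared with each other within a library, where depth cancels. For every 100 Adipoq counts, days 12, 14, 16 and 18 held 6.76 (4.78 to 9.31), 12.4 (10.3 to 14.7), 24.0 (21.8 to 26.3) and 24.3 (22.2 to 26.5) Cfd counts. The Cfd counts per 100 Adipoq counts were thus higher on each day up to day 16 and about the same on day 18. Retn gained as well, from 1.01 (0.370 to 2.22) on day 12 to 4.07 (3.31 to 4.97) on day 18. Lep was at 1.01 (0.370 to 2.22), 0.622 (0.250 to 1.29), 2.28 (1.71 to 3.00) and 2.32 (1.75 to 3.00) on days 12 to 18, lowest on day 14. Plin1 by contrast ran between 60.7 (56.8 to 64.9) on day 16 and 89.0 (79.0 to 100.3) on day 12, with no steady direction, and Cidec stood at 48.6 (42.1 to 56.1) on day 12, 29.1 (26.7 to 31.7) on day 16 and 34.4 (31.8 to 37.2) on day 18. These ratios compare single libraries and carry no replicate error.

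**Figure D4:**
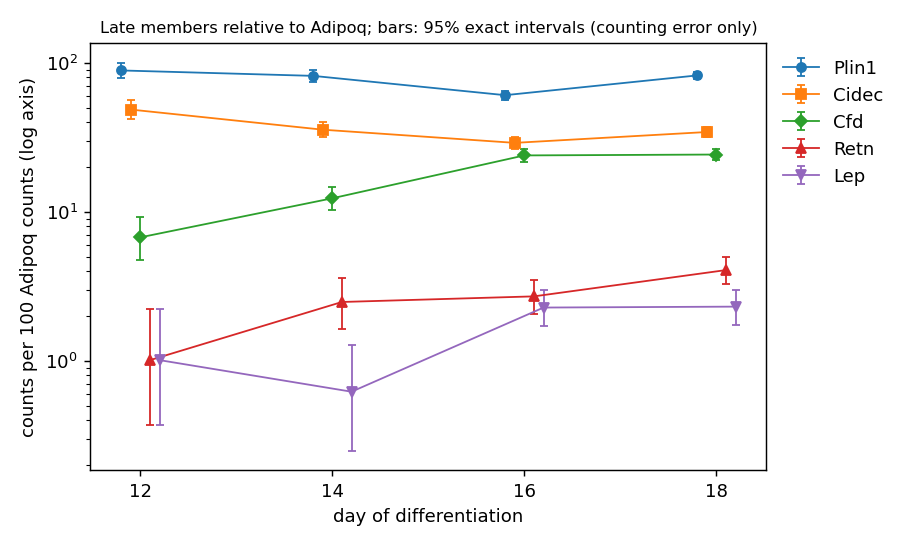
Summed counts of Plin1, Cidec, Cfd, Retn and Lep per 100 Adipoq counts (vertical axis, logarithmic) on days 12 to 18 (horizontal axis, points shifted slightly so that they can be told apart); bars are 95% exact intervals for counting error. Cfd climbs from 6.76 to 24.3 and Retn from 1.01 to 4.07, while Plin1 stays between 60.7 and 89.0.

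Across the 9 days, on the log2(TPM + 0.5) scale, the Pearson correlation was 0.999 between Plin1 and Adipoq, 0.992 between Plin1 and Cidec, 0.984 between Retn and Cfd and 0.965 between Plin1 and Plin4. Plin2 ran against Plin1, with a correlation of -0.51, which was -0.79 without day 10 and -0.40 without day 4. These values describe 9 points that share their libraries and a common trend in day. Of 9844 other genes with a mean of at least 5 TPM, the closest to Adipoq were Fabp4 (0.998), the adipocyte fatty acid chaperone, the carbonic anhydrase Car3 (0.995) and the glycerol phosphate dehydrogenase Gpd1 (0.994). The same 3 genes stood nearest to Plin1. Nearest to Cidec were Fabp4, Gpd1 and the bone matrix gene Ibsp, and nearest to Cfd were the osteocalcin gene Bglap (0.988), the acyltransferase Agpat2 and the lipase Pnpla2. Retn was closest to Gm525, Jam2 and Bglap, and Plin4 to Gm9581, Epas1 and Phex. Plin3 was closest to Lrrc58, Bmyc and Tex264, and Plin2 to 2700078E11Rik, Stard13 and Atl2, none of which is in the lists of lipid genes. Adipocyte genes and bone matrix genes thus stood together among the nearest courses.

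The region just before the start of each gene was read from RefSeq (GRCm38.p6, another build than that of the gene positions above), which held promoters for all 10 members, 12 in all. The 250 bases before the start are shown, 5′ to 3′ on the strand of the gene, for Plin2, which is made throughout, and for Plin1, Adipoq and Lep, which come up late. Capitals mark matches to the motifs searched on both strands.
Plin2, chr4:86670060-86670309, minus strand: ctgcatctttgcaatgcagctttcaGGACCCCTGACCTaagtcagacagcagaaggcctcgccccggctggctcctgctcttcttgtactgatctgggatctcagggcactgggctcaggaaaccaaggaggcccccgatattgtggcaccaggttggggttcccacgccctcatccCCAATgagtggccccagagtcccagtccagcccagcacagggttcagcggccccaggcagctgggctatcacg
Plin1, chr7:79732777-79733026, minus strand: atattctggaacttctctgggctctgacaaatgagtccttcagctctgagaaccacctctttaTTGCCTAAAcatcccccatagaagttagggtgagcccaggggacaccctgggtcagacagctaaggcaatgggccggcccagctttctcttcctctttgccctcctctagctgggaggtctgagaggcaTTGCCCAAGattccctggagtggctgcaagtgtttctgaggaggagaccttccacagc
Adipoq, chr16:23146286-23146535, plus strand: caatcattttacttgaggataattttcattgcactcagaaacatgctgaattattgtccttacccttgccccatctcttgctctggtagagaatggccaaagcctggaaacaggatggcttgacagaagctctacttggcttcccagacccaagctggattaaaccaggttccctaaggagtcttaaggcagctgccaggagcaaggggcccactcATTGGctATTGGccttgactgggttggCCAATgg
Lep, chr6:29059971-29060220, plus strand: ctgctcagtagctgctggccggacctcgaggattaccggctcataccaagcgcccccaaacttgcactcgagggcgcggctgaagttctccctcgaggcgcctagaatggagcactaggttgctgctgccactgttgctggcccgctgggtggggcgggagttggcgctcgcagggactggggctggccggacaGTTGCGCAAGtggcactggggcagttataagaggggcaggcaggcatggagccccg
The motifs were 2 AGGTCA hexamers 1 base apart with at most 2 differences, the kind of element bound by the adipocyte regulator Pparg, the CEBP motif TTGCNNAAN, CCAAT and TATAAA. The hexamer pair was matched in 1 of the 10 members, Plin2, beside 3.86% of 32851 RefSeq promoters of 250 bases before to 50 after a start. This match reads on the strand opposite to that of the gene, with its first base as printed at -225 from the start. The CEBP motif was matched in 3 members, beside 10.8% of all promoters: at -187 and -58 from the start of Plin1, at -55 and -56 from that of Lep, where matches on opposite strands overlap, and in 1 of the 2 promoters of Cidec. CCAAT was matched in 5 members, beside 37.4% of all promoters, with 3 matches in Adipoq, and TATAAA in none of the 10, beside 13.6%. Members were counted by gene, 10 genes with 12 promoters, whereas the shares of all promoters were counted by promoter. The counts and shares are therefore not in the same unit. A match describes letters in this window and does not show binding.

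Other genes of the same pathways, which are not members, were tested for a straight line in day (edgeR quasi-likelihood test, Benjamini-Hochberg adjusted p under 0.05 over 15659 genes). The p-values measure the scatter of 9 single libraries around a line, not a spread between replicates. Of all genes 28.3% were called higher and 26.1% lower toward day 18, with a median fitted log2 change of 0.05. Of the 10 members 8 passed the filter on low counts, of which 7 ran higher and Plin2 lower; these were chosen on the same counts, so nothing is read from that count. Of 80 genes in 5 related lists, 72 were fitted, of which 49 rose (68.1%), 10 fell (13.9%) and 13 were not called. These lists were drawn up with earlier results of these data known.

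Among droplet partners, 7 of 15 fitted genes rose, 2 fell and 6 were not called, with a median log2 change of 0.39. Pnpla2, the lipase that starts triglyceride breakdown, rose by 2.95 on the log2 scale from day 2 to day 18 (SE 0.37, edgeR adjusted p = 0.000138), from 10.7 to 76.2 TPM. Lipe, the hormone-sensitive lipase, rose by 4.31 (SE 0.33, edgeR adjusted p = 1.36e-05), and G0s2, an inhibitor of Pnpla2, by 6.47 (SE 0.92, edgeR adjusted p = 0.000276). Mgll, the monoglyceride lipase, had a change of 0.39 (SE 0.39, edgeR adjusted p = 0.422). Abhd5, the co-activator held by Plin1, had a change of -0.33 (SE 0.19, edgeR adjusted p = 0.171), and Cav1, a caveolar protein found on droplets, fell by 1.63 (SE 0.35). Cidea, the brown fat relative of Cidec, never passed 0.211 TPM.

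Among other secreted factors of adipose tissue, 13 of 14 fitted genes rose. Rarres2, which encodes chemerin, stood at 0.154 TPM on day 2 and 100.3 on day 18 (log2 change 8.69, SE 0.65, edgeR adjusted p = 1.3e-05), where Adipoq had 92.0 TPM. Agt, the angiotensin precursor, had the largest fitted rise of the list, 8.89 (SE 1.44), with 0 TPM on day 2 and 6.89 on day 18. The rise of Agt was 9.57 with a spline in day and 7.58 for days 14 to 18 against days 2 to 6.

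In the list of adipokine receptors and substrates, which is not limited to those of the members, 5 of 9 genes rose, 1 fell and 3 were not called. The 5 were Adipor2, Cmklr1, C3, Cfb and C3ar1. The leptin receptor Lepr fell, with 51.4 TPM on day 2 and 2.82 on day 18 (log2 change -4.59, SE 0.58, edgeR adjusted p = 0.000152). Most of this fall came before Lep was detected: Lepr was at 3.56 TPM on day 10, when Lep had 0 counts. On day 12 Lepr was at 3.91 TPM. The adiponectin receptors were present throughout: Adipor1 at 65.9 TPM on day 2 and 57.0 TPM on day 18 (edgeR adjusted p = 0.0811), and Adipor2 at 10.0 and 16.9 TPM, a rise of 0.72 on the log2 scale (SE 0.15, edgeR adjusted p = 0.00223). Cfb, the substrate that adipsin cleaves, rose, with 0.944, 15.2 and 27.7 TPM on days 2, 10 and 18 (edgeR adjusted p = 0.0015). C3, the complement component with which Cfb acts, rose by 8.96 (SE 1.35, edgeR adjusted p = 0.000367) and was at 23.4 TPM on day 10, when Cfd had 0 counts.

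Of 16 adipocyte regulators 10 rose, 3 fell and 3 were not called. Pparg, the nuclear receptor that directs adipocyte formation, had 5.15, 4.24, 13.5, 27.3 and 35.1 TPM on days 2, 8, 10, 12 and 18 (log2 change 3.94, SE 0.76, edgeR adjusted p = 0.00154). Cebpa, its partner, had 1.30, 3.33, 13.2, 18.0 and 23.4 TPM on those days (log2 change 5.15, SE 0.78, edgeR adjusted p = 0.000383). On day 10 both were above 10 TPM while Plin1 and Cidec were under 1 TPM. On the same day Adipoq was at 1.13 TPM, Plin4 at 1.46, Fabp4 at 4.43 and Lpl of the fatty acid list at 98.2 TPM. Whether the regulators came first was not tested. The other regulators of the list ranged on that day from 0.0378 TPM for Mlxipl to 114 TPM for Ebf1. Klf15 was at 0.772 TPM and Nr1h3 at 1.88 TPM. The largest fitted rise was that of Mlxipl, a glucose-responsive factor, at 8.31 (SE 0.84), with 0 TPM on day 2 and 1.55 on day 18. For Mlxipl it was 7.30 with a spline in day and 6.28 for days 14 to 18 against days 2 to 6. Klf5 fell by 2.46 (SE 0.34), and Cebpb and Cebpd fell as well.

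Genes of fatty acid uptake and triglyceride synthesis rose in 14 of 18 cases, fell in 3 and were not called in 1. Fabp4 rose, with 1.92, 4.43, 48.3 and 198 TPM on days 2, 10, 12 and 18 (log2 change 8.88, SE 1.00, edgeR adjusted p = 8.85e-05). Pck1, which supplies glycerol for triglyceride, had the largest fitted rise at 12.04 (SE 1.16), with 0 TPM on day 2 and 7.44 on day 18. The rise of Pck1 was 9.66 with a spline in day and 9.56 for days 14 to 18 against days 2 to 6. The falls of Fabp5 and Acaca were small, and that of Acaca (-0.35, SE 0.13, edgeR adjusted p = 0.0357) holds for counts only, since its TPM was higher late (16.2, 59.1 and 28.4 on days 2 to 6, and 60.0, 86.3 and 77.5 on days 14 to 18). Fasn, the fatty acid synthase, fell by 0.86 (SE 0.15, edgeR adjusted p = 0.000872), while the fatty acid transporter Cd36 rose by 9.11 (SE 0.72).

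**Figure D5:**
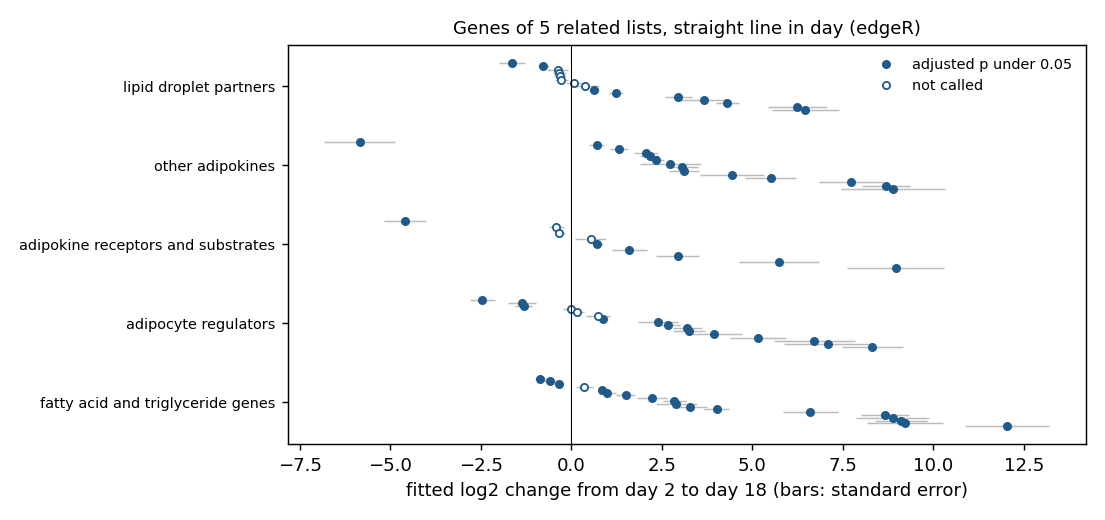
Fitted log2 change from day 2 to day 18 (horizontal axis) of the 72 fitted genes in 5 lists of related genes (vertical axis), with bars for the standard error; filled points have an edgeR adjusted p under 0.05 and open points do not. Of the 72 genes 49 lie to the right as called rises and 10 to the left as called falls, among the latter Lepr at -4.59.

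Markers of other cells moved with the late members in the same fit. Of the fitted osteoblast markers 8 of 11 rose, Bglap by 11.27 (SE 1.11; 7.45 with a spline in day and 7.44 for days 14 to 18 against days 2 to 6), and of the macrophage markers 6 of 7 rose, Emr1 by 7.73 (SE 0.49). Lyz2 had 172, 421 and 1855 TPM on days 10, 12 and 18. Of 3 fitted endothelial markers Cdh5 and Tek rose and Kdr fell. The call of Kdr was lost without day 2 or day 16 and for days 14 to 18 against days 2 to 6. Kdr was highest on day 2 at 1.16 TPM, and its fitted change of -3.27 was -0.67 without that day. Dio2 of the brown adipocyte list rose by 7.53 (SE 0.28), and of the striated muscle list Myh1 rose by 6.38 (SE 1.02) while Acta1 fell by 5.91 (SE 0.76). Their part in the levels of Plin2, Plin3 or the late members was not tested.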

How the data were processed

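RNA sequencing profiles of mouse calvarial cells on 9 days of osteoblast differentiation, 27 in all, were used. Reads were aligned by the authors with Bowtie 0.12.9 to NCBIm37 and quantified with RSEM 1.2.8 (versions from the submitters' processing notes). The authors deposited an estimated count per gene and profile, which RSEM leaves unnormalized. TPM and FPKM deposited by the authors divide these counts by a transcript length averaged over isoforms by their abundance, and that length is deposited beside them. Gene names and positions are those of the NCBIM37 GENCODE annotation. Older symbols of list genes were matched through synonyms, and all 114 list genes were found.

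TPM was scaled so that the 75 percentile of the values above 0 is equal in all profiles, at the mean of the 27 percentiles. Counts of the 3 profiles of a day were summed, since they share 1 barcode, and rounded for edgeR 4.0.16 in R 4.3.3 (upper-quartile factors, minimum count of 10, quasi-likelihood test of a line in day). Levels of different genes were compared in TPM; counts per 100 Adipoq counts are followed over days for each gene and are no comparison of levels. Ratios have 95% exact conditional intervals, computed with scipy 1.17.1. Correlations and steps used log2(TPM + 0.5). Alternatives were TMM factors, DESeq2 1.42.0, another filter, separate profiles without and with a replicate block, left-out replicates or days, a spline and other units.

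The members and lists were chosen with earlier results of these data known. Named genes are the members, genes of the lists, the largest rise and fall of each list, and the 3 genes most like each member. Car3 is named by the last rule. 1 item that this rule would name is not reported here.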

Additional observations from a re-analysis of the deposited data

How the results depend on the processing

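Of the 769 values under alternatives, no fold change, fitted change or correlation was opposite in direction to its main value. The counts of called genes and the perilipin shares among the 769 have no direction. List genes other than the largest rise and fall of each list, such as Acaca, were not followed singly. With the 27 profiles as separate samples, 10754 genes were called without and 10881 with a replicate block, against 8510 for the summed libraries; these fits treat lanes as replicates and the replicate numbers do not pair the samples (mean correlation of same-numbered deviations 0.000124). Both fits called 16 lower genes in the related lists (10 in the main fit), 6 droplet partners (2) and 3 receptors and substrates (1). A spline in day called 4 lower droplet partners and 3 lower receptors and substrates. Leaving out 1 day or replicate gave 1 to 3 lower receptors and substrates (3 without day 18) and 1 to 3 lower fatty acid genes (1 without day 4, 6, 12 or 14).

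For days 14 to 18 over days 2 to 6 in log2 TPM, Plin2 was -0.58, and -0.69 with TPM as deposited, -0.73 with FPKM, -0.68 in CPM with TMM factors and -0.50 to -0.67 with 1 day or replicate left out. Plin3 was 0.79, and 0.68 with TPM as deposited, 0.65 with FPKM and 0.69 to 0.93 with 1 left out. Plin1 was 8.85, and 8.41 to 10.11 with 1 left out (10.11 without replicate 2). Cidec was 10.59, and 8.79 in CPM and 8.96 with the longest transcript as length. That length, added after seeing the data, gave Plin2 88.4% of perilipin TPM on day 2, and on day 18 Plin2 41.1%, Plin1 41.4% and Plin3 12.8%. The causes of the moves that do not follow from the construction of the alternative were not tested. On days 2 to 10 Plin1, Cidec, Adipoq, Retn, Lep and Cfd had at most 18 counts, which limits any fold change.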
